A study of Mus musculus with 18 samples.

Results

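The 10 core clock genes of mouse liver were described in 18 mice: Arntl, Npas2, Clock, Cry1, Cry2, Per1, Per2, Per3, Nr1d1 and Nr1d2. They were picked by gene symbol from a table of 54532 genes, and earlier results of these data were known when they were chosen. The mice were male C57BL/6J, 6 weeks old at the start, 6 in each of 3 groups. Normal control (NC) mice ate a standard diet. HFD mice ate a high-fat diet (D12492) for 14 weeks and were then given saline with the diet continued. SZ-A mice ate the same diet and then received SZ-A (Ramulus Mori alkaloids, from mulberry twig) for 8 weeks by the deposited description, while the methods state another length. The dose and route behind the sequenced livers were not given in the sources used here. All mice were kept on a light/dark cycle and fasted overnight before they were killed. The time of day at which each liver was taken is not given in the sources used here, so time of collection and group cannot be told apart.

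The liver clock is a loop of transcription factors whose mRNA levels rise and fall over the day. BMAL1 (encoded by Arntl) pairs with CLOCK or NPAS2, binds E-box DNA and switches on the Per, Cry and Nr1d genes. PER and CRY proteins then hold that activator back, and REV-ERB alpha and beta (Nr1d1 and Nr1d2) repress Arntl, Npas2 and Clock, so that Arntl mRNA and Per or Nr1d mRNA peak at different times of day. Meal times and fasting are known to shift the liver clock.

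Poly-A RNA was sequenced, and the values are FPKM, fragments per gene scaled by gene length and library size. Between 17163191 and 20493907 fragments lay on genes in each mouse. The profiles of NC5 and SZ-A5 stood apart, with correlations of 0.960 and 0.969 to the rest of their groups against 0.977 to 0.989 in the other 16 mice. NC5 was the highest or lowest NC mouse for 64.5% of the genes tested and SZ-A5 for 49.2% of them in its group, against 19.1% to 45.7% in the other mice. The mouse titled as control number 6 (NC6) carries a high-fat diet label. It was kept in NC by its title, and calls of named genes that change without it are given beside them. It was neither the highest nor the lowest NC mouse for any of the 10 clock genes.

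The 8 hepatocyte markers were detected, and their summed level ranged from 39050 to 58670 FPKM in NC livers, against 25140 to 43550 for HFD and 31710 to 54960 for SZ-A. The summed level of 8 Kupffer cell and macrophage markers ranged from 91.3 to 194.6, from 144.9 to 303.2 and from 169.4 to 215.9 FPKM in the same order. Those of 7 stellate markers ranged from 56.6 to 73.3, from 61.7 to 108.8 and from 61.0 to 81.4 FPKM, and those of 7 endothelial markers from 63.3 to 79.0, from 74.2 to 89.5 and from 73.3 to 79.2 FPKM. Over all 18 mice, the 5 cholangiocyte markers summed to 10.9 to 44.3 FPKM, the 6 T cell markers to 0.587 to 2.53, the 4 B cell markers to 0.272 to 2.07, the 5 adipocyte markers to 6.68 to 161.3 and the 5 red blood cell markers to 151.1 to 470.5, and of 6 pancreas acinar markers, 4 were above 0 in any mouse, summing to 3.17 to 10.6. In bulk liver, fewer cells of a type and less RNA per cell cannot be told apart, and the part of these shifts in the clock gene values was not tested.

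The genes lie on GRCm38 at chr7:113207465-113314126 (Arntl), chr1:39193731-39363236 (Npas2), chr5:76209868-76304792 (Clock), chr10:85131700-85185064 (Cry1), chr2:92403646-92434043 (Cry2), chr11:69095217-69109960 (Per1), chr1:91415982-91459324 (Per2), chr4:151003652-151044665 (Per3), chr11:98767932-98775333 (Nr1d1) and chr14:18204054-18239127 (Nr1d2). The library kit does not mark strand, so reads from overlapping genes cannot be told apart by it. Nr1d1 shares 1075 bases with Thra on the other strand (mean 3.50 FPKM), and Per3 lies inside Camta1 on the same strand (mean 0.202 FPKM). Clock holds the pseudogene Ube2n-ps1 (mean 5.30 FPKM over 459 shared bases), and Cry2 runs against the transcript D930015M05Rik (mean 0.124 FPKM).

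Promoter windows of 250 bases before each annotated start were available from RefSeq for 9 of the 10 genes, 13 windows in all, and Per2 had no entry. They were searched on both strands for the E-box CACGTG, the E-prime-box CACGTT, the RORE core TAGGTCA or TGGGTCA that REV-ERB proteins bind, and the D-box TTATGTAA that DBP, TEF and HLF bind. The E-box was found in Cry1 and Per1 (6.02% of 32851 windows of all genes hold it), the E-prime-box in Cry1, Cry2 and Nr1d1 (3.85%), the D-box at 2 places in Per3 (0.819%), and the RORE core in no window of a core clock gene (5.38%). The windows end at the annotated start, and sites past it or farther before it were not searched, so a missing match does not show that a gene lacks the site. The 5 windows with a match are shown because these genes include those that differed most, and least, between the diets. They were read on the strand of the gene, from Cry1 at chr10:85185055-85185304, Cry2 at chr2:92434070-92434319, Per1 at chr11:69098699-69098948, Per3 at chr4:151044666-151044915 and Nr1d1 at chr11:98775378-98775627 of GRCm38.p6. Capitals mark the matches, and AACGTG is the E-prime-box read on the other strand.
Cry1: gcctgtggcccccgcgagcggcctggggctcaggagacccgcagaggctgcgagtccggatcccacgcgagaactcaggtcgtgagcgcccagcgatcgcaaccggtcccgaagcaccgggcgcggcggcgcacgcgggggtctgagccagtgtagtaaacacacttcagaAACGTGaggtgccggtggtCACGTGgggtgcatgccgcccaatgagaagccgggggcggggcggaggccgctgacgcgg
Cry2: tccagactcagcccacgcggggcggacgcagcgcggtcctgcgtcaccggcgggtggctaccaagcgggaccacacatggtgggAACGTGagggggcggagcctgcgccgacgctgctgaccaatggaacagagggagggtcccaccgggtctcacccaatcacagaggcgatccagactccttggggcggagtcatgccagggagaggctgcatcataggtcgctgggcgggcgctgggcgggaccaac
Per1: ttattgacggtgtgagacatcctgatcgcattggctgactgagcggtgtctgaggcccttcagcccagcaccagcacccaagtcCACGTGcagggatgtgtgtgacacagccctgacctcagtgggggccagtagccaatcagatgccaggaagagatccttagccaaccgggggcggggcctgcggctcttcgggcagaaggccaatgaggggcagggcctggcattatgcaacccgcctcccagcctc
Per3: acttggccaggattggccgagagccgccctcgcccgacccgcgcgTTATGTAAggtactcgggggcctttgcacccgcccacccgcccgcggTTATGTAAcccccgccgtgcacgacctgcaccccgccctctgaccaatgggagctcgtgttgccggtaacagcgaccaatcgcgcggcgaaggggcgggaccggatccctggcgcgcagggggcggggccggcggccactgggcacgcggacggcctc
Nr1d1: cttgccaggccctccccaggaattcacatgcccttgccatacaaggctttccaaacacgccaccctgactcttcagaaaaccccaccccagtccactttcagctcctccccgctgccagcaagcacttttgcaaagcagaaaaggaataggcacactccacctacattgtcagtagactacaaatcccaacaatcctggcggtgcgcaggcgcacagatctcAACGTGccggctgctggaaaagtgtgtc

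The Cry1 window ends within the annotated gene by 10 bases, the Per1 window lies wholly within the Per1 gene model, the Per3 window lies within Camta1, and those of Cry2 and Nr1d1 touch no annotated gene. A match of letters is not shown to be a bound site.

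Among the 10 genes, the REV-ERB repressors had the highest FPKM, which is per length of gene and so can be set side by side. Nr1d1 stood at 20.4 ± 7.61 FPKM in NC mice, 20.8 ± 4.64 in the HFD group and 23.3 ± 6.67 in the SZ-A group (SD, n = 6 each). Nr1d2 followed at 11.8 ± 3.56, 17.2 ± 1.84 and 18.2 ± 2.98 FPKM in the same order, and its range overlapped that of Nr1d1 in every group. Next came Per1 at 5.85 ± 1.27, 5.65 ± 2.55 and 7.92 ± 2.65 FPKM, which met the range of Nr1d2 in NC mice alone. Cry2, Per2 and Clock followed in an order that differed between the groups, where the ranges of neighbours overlapped, and Cry1 was lower at 2.42 ± 0.540, 2.10 ± 0.374 and 2.01 ± 0.445 FPKM. In HFD mice the highest Cry1 value (2.62 FPKM) lay just under the lowest Clock value (2.64). Arntl, Per3 and Npas2 were the lowest, and which of them was lowest depended on the group: in NC mice Per3 (0.406 ± 0.316 FPKM) and Npas2 (0.478 ± 0.414) lay under Arntl (1.48 ± 0.739), while in HFD mice Arntl (0.482 ± 0.344) and Npas2 (0.131 ± 0.133) lay under Per3 (1.62 ± 0.394). Npas2 rested on 2 to 33 fragments in HFD, 7 to 25 in SZ-A and 11 to 96 in NC mice, so its values carry a large counting error.

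**Figure D1:**
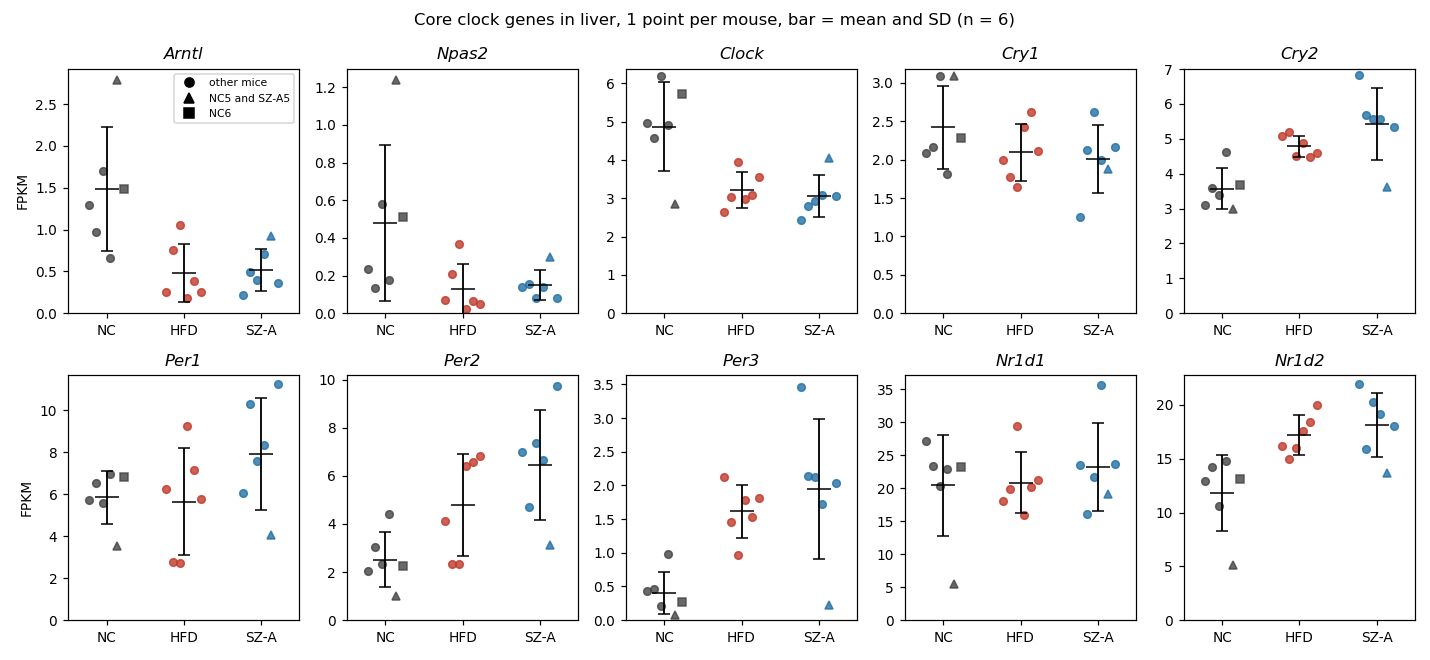
FPKM of the 10 core clock genes in liver (vertical axis, from 0), 1 point per mouse in NC, HFD and SZ-A groups, with the mean and SD of 6 mice; triangles are NC5 and SZ-A5, and the square is NC6. All 6 HFD points of Nr1d2 lie above all 6 NC points, while those of Cry1, Per1 and Nr1d1 overlap.

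The first comparison, HFD against NC, asked which clock genes differed between the diets. Per3 was 3.86-fold higher and Cry2 1.35-fold higher in HFD mice, while Arntl was at 0.351 and Clock at 0.678 of the NC level, as ratios taken back from the difference of mean log2(FPKM + 0.1). The threshold was an adjusted p under 0.05 over all genes with a fold change over 1.2. Per2, Nr1d2 and Npas2 differed by 0.89, 0.61 and -1.22 on the log2 scale and did not pass it. Per1, Cry1 and Nr1d1 differed by less than the spread between mice.

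Of the activators, Arntl ranged from 0.663 to 2.79 FPKM in NC mice (median 1.39) and from 0.187 to 1.05 in HFD mice (median 0.323). The groups overlapped through NC2 and NC4, the lowest NC mice, and through HFD2 and HFD3, the highest HFD mice. Arntl had a mean of 0.828 FPKM over all mice, under the filter of 1 FPKM, and was tested in a fit with no filter, in which 6.96% of 27266 genes passed the threshold (2.86% as lower in HFD). There Arntl fell by 1.51 on the log2 scale (SE 0.40, limma adjusted p = 0.0473). In a fit of the 15996 genes with a mean of at least 0.1 FPKM, chosen after its values were seen, the limma adjusted p was 0.0179, and 6.42% of genes passed as lower. The call in the first of these fits was lost without any 1 of NC1, NC2, NC3, NC5, NC6, HFD1, HFD2, HFD4, HFD5 or HFD6 (adjusted p 0.0527 to 0.101, log2 difference -1.66 to -1.31).

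Npas2, which can stand in for CLOCK as the partner of BMAL1, ranged from 0.132 to 1.24 FPKM in NC and from 0.0210 to 0.367 in HFD mice. All 6 HFD mice lay under the NC mean, but the groups overlapped widely. Its log2 difference was -1.22 (SE 0.47) with a limma adjusted p of 0.169. Clock ranged from 2.84 to 6.2 FPKM in NC mice (median 4.93) and from 2.64 to 3.95 in HFD mice (median 3.05). Only NC5 among the NC mice fell into the HFD range. Clock fell by 0.56 on the log2 scale (SE 0.16, limma adjusted p = 0.0276), and did not pass in the fit with no filter (0.0763), the one in which Arntl passed. Without NC5 the decrease was larger, at 0.70 (adjusted p = 0.00116). Without NC6 the call was lost (adjusted p = 0.0544), as it was without NC3, NC4, HFD1, HFD2 or HFD4 (0.053 to 0.0603).

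Of the 8 core genes that passed the filter, 3 passed the threshold in this comparison, next to 20.2% of all 10216 genes tested (10.7% as higher and 9.49% as lower in HFD). Per3 is one of them, and it passed the filter only through the HFD and SZ-A mice, since its NC mean was under 1 FPKM, so its place among the genes tested already depended on a high level there.

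Among the repressors, the Period gene Per3 ranged from 0.0771 to 0.981 FPKM in NC mice (median 0.348) and from 0.971 to 2.13 in HFD mice (median 1.66). Only NC4 and HFD3 met, at 0.981 and 0.971 FPKM. Per3 rose by 1.95 on the log2 scale (SE 0.36, limma adjusted p = 0.00241), and it passed in 26 of 26 alternatives, with differences of 0.91 to 2.32.

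Per2, a Period gene that also responds to body-wide cues such as glucocorticoids, ranged from 1.0 to 4.42 FPKM in NC and from 2.32 to 6.83 in HFD mice. HFD2 and HFD3 lay in the middle of the NC range at 2.32 and 2.35 FPKM, while HFD4, HFD5 and HFD6 lay above every NC mouse at 6.42 to 6.83. The log2 difference was 0.89 (SE 0.35, limma adjusted p = 0.0915). Per1, an early-response Period gene, ranged from 3.52 to 6.94 FPKM in NC and from 2.71 to 9.25 in HFD mice. Its HFD values lay on both sides of the NC values, and the log2 difference was -0.15 (95% interval -0.78 to 0.47, limma adjusted p = 0.742).

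Of the cryptochromes, which bind and silence the activator, Cry2 ranged from 3.0 to 4.63 FPKM in NC and from 4.49 to 5.19 in HFD mice. NC4 was the only NC mouse inside the HFD range. Cry2 rose by 0.43 on the log2 scale (SE 0.10, limma adjusted p = 0.00876), and its spread among the 6 HFD mice was small, at the 9.16th percentile of all genes tested. Cry1 ranged from 1.82 to 3.10 FPKM in NC and from 1.64 to 2.62 in HFD mice, with a log2 difference of -0.19 (95% interval -0.52 to 0.14, limma adjusted p = 0.400).

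Nr1d2 was the only 1 of the 10 genes whose HFD and NC ranges did not meet: 5.15 to 14.8 FPKM in NC and 15.0 to 20 in HFD mice. Of all genes tested, 5.48% had every HFD mouse above every NC mouse. The log2 difference was 0.61 (SE 0.21) with a limma adjusted p of 0.0583. Without NC5, the lowest mouse by far, the difference was 0.39 (SE 0.10) and Nr1d2 rose past the threshold (adjusted p = 0.0143). Its paralog Nr1d1 ranged from 5.54 to 27.1 FPKM in NC and from 16 to 29.5 in HFD mice. Its log2 difference of 0.15 (95% interval -0.54 to 0.85, limma adjusted p = 0.772) turned to -0.19 without NC5. With NC5 left out, 4 of 8 core genes passed the threshold (Per3, Cry2, Clock and Nr1d2), next to 21% of all genes.

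The directions above hold for FPKM as deposited. There the ratio of library size to fragments on genes had a median of 1.11 in HFD and 0.979 in NC mice. Rescaling each mouse to a common sum moved the median log2 difference of all genes from -0.033 to 0.154 in HFD against NC, and the calls over all genes from 1092 higher and 970 lower to 2100 higher and 334 lower. On that scale 20.6% of genes passed as higher and 3.27% as lower. Per3, Cry2, Per2 and Nr1d2 passed as higher, while Clock (-0.37, limma adjusted p = 0.180) and Arntl (-1.35, limma adjusted p = 0.0617) did not pass.

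**Figure D2:**
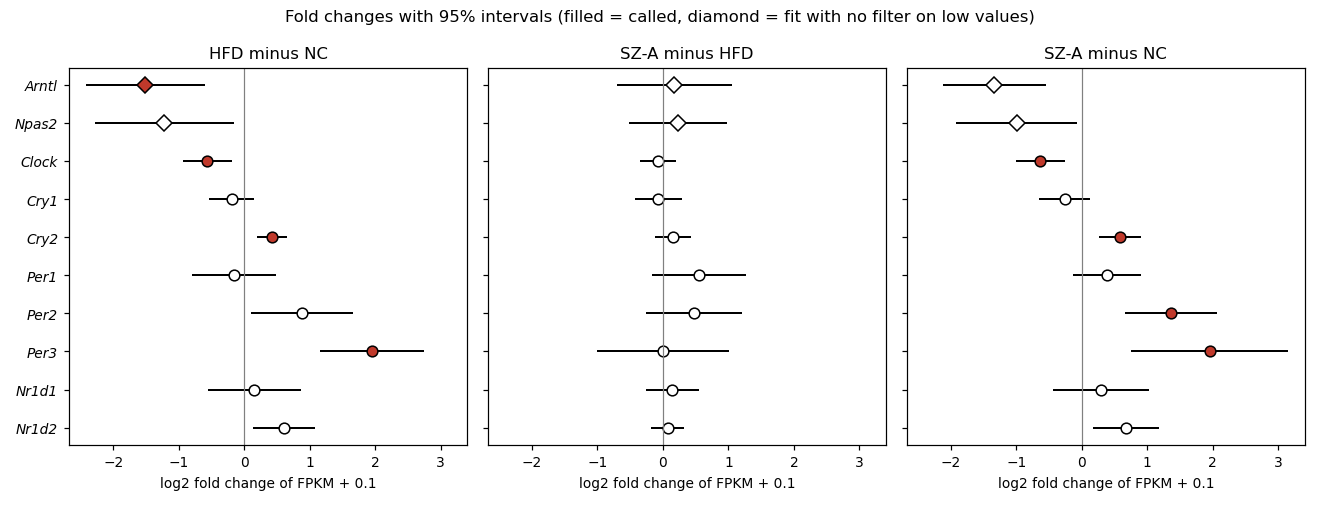
Log2 differences of FPKM + 0.1 (horizontal axis) with 95% intervals for the 10 core clock genes, for HFD minus NC, SZ-A minus HFD and SZ-A minus NC; filled marks passed the threshold, and diamonds (Arntl and Npas2) come from the fit with no filter. In the middle panel every interval crosses 0 and no mark is filled.

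The second comparison, SZ-A against HFD, asked whether the clock genes differed with SZ-A treatment on the same diet. None of the 8 core genes tested passed in limma, and 0 of 8 had an unadjusted p under 0.05, next to 0.147% of all genes called and 14.8% at an unadjusted p under 0.05. With no filter, 0 of 10 passed in limma, as did 0% of all 27266 genes, of which 2741 had an unadjusted p under 0.05. With voom on recovered fragments, 31 genes passed in all and no core clock gene among them.

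Of the 8 genes that passed the filter, the Period genes had the widest intervals. Per1 ranged from 4.04 to 11.2 FPKM in SZ-A mice against 2.71 to 9.25 in HFD mice, with a log2 difference of 0.54 (95% interval -0.16 to 1.25, limma adjusted p = 0.467). Per2 ranged from 3.12 to 9.74 FPKM in SZ-A mice against 2.32 to 6.83 in HFD mice, with a difference of 0.48 (95% interval -0.24 to 1.19, limma adjusted p = 0.542). In both genes SZ-A5 was the lowest SZ-A mouse, and HFD2 and HFD3 were the lowest HFD mice.

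Of the 10 core genes, Per3 showed the largest spread on the log2 scale between mice of 1 group: 0.220 FPKM in SZ-A5 and 3.46 in SZ-A1, against 1.73 to 2.14 in the other 4 SZ-A mice. Its SD on the log2 scale was 1.21 in SZ-A mice, at the 98.8th percentile of all genes tested, where the median gene had 0.189. Without SZ-A5 that SD was 0.36, at the 86.4th percentile. The Per3 log2 difference was 0.00 (95% interval -0.99 to 1.0) with all mice and 0.48 (SE 0.20, limma adjusted p = 0.272) without SZ-A5.

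Intervals were narrower for the other genes that passed the filter. They ran from -0.33 to 0.19 on the log2 scale for Clock, from -0.42 to 0.27 for Cry1, from -0.10 to 0.41 for Cry2, from -0.24 to 0.53 for Nr1d1 and from -0.17 to 0.31 for Nr1d2. For Arntl, at 0.224 to 0.920 FPKM in SZ-A mice, the interval was -0.69 to 1.04, and for Npas2, at 0.0800 to 0.299 FPKM, it was -0.51 to 0.97. Differences inside these intervals could not be told from 0 with 6 mice a group. Without SZ-A5, Per1, Per3 and Cry2 differed by 0.72, 0.48 and 0.27 with unadjusted p under 0.05 but limma adjusted p of 0.286, 0.272 and 0.124.

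The third comparison, SZ-A against NC, asked which clock genes differed between SZ-A mice and mice on the standard diet. It shares its SZ-A mice with the second and its NC mice with the first comparison, so the values stand side by side and are no independent repeat. Per2 rose by 1.36 (SE 0.32, limma adjusted p = 0.0176), Cry2 by 0.58 (SE 0.14, 0.0202) and Per3 by 1.95 (SE 0.55, 0.0404), and Clock fell by 0.63 (SE 0.17, 0.0330). These were 4 of 8 core genes tested, next to 9.6% of all genes called. Here too, Per3 passed the filter only through the HFD and SZ-A mice, so its place in this count already depended on a high level there. All 6 SZ-A mice lay above the NC mean in Per2 and Cry2 and under it in Clock, and 5 of 6 lay above it in Per3, all but SZ-A5.

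The ranges of SZ-A and NC mice overlapped in all 10 core genes, while 5.5% of all genes tested had ranges that did not. Nr1d2 differed by 0.68 (SE 0.22, limma adjusted p = 0.0749) and passed without NC5 (0.46, limma adjusted p = 0.034), when 11.3% of all genes passed. Arntl differed by -1.33 (SE 0.35, limma adjusted p = 0.0832) and Npas2 by -0.99 (SE 0.41, limma adjusted p = 0.302) in the fit with no filter, in which 2.07% of all genes and none of the 10 core genes passed, although 7 of the 10 had an unadjusted p under 0.05, next to 3837 of the 27266 genes. In the fit with a mean of at least 0.1 FPKM, chosen after the values were seen, Arntl passed (limma adjusted p = 0.0340), next to 2.56% of genes as lower. Npas2 (0.168), Clock (0.0506) and Per3 (0.0583) did not pass in that fit. Per3 passed in 13 and Clock in 11 of 26 alternatives. Per3 did not pass with voom (adjusted p = 0.0814), nor Clock with a common sum (limma adjusted p = 0.0753). Per1 (0.39), Nr1d1 (0.30) and Cry1 (-0.26) did not pass. Without NC6, 2 core genes passed, Per2 and Cry2, next to 9.27% of all genes. Clock and Per3 were likewise both lost without any 1 of NC1, NC2, NC3, SZ-A1, SZ-A2, SZ-A3, SZ-A4 or SZ-A6, while Per2 and Cry2 passed with each mouse left out in turn.

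Core clock genes differed widely between single mice of the same group, which shared diet and treatment. In NC mice the log2 SD of Arntl, Npas2, Per2, Per3 and Nr1d1 lay at the 95.1st to 98.3rd percentile of all genes tested (0.66 to 0.96, where the median gene had 0.225). For Nr1d1 this rested on NC5: among the other 5 NC mice its SD was 0.146, at the 40.4th percentile, where the median gene had 0.166. Arntl, Npas2, Per2 and Per3 then stood at the 91.6th to 97.0th percentile (0.44 to 0.69). In HFD mice Arntl, Npas2, Per1 and Per2 were at the 96.5th to 97.2nd percentile (0.72 to 0.79, where the median gene had 0.187). Arntl and Npas2 were themselves under the filter of 1 FPKM, so their percentiles are taken among genes of higher level. The spread of Npas2 also holds its counting error, at 11 to 96 fragments in NC and 2 to 33 in HFD mice. So does that of Per3 in NC mice, at 12 to 191 fragments. Clock, Cry1 and Cry2 were nearer to the middle in every group, at the 9.16th to 81.7th percentile.

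**Figure D3:**
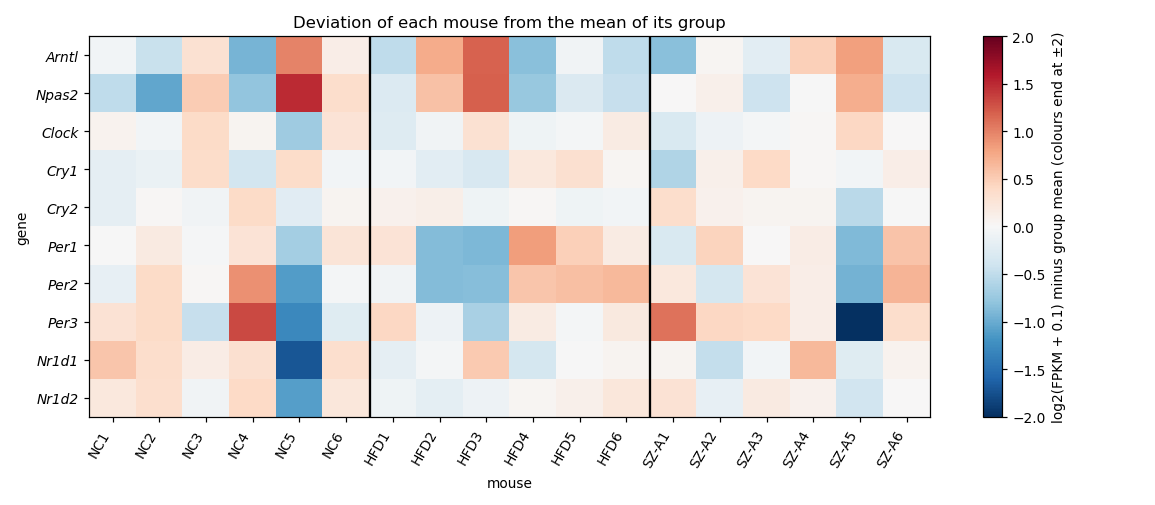
Deviation of log2(FPKM + 0.1) from the mean of its group (colour, red above and blue below, ending at 2 on either side) for the 10 core clock genes (rows) in the 18 mice (columns, black lines between groups). NC5, HFD2, HFD3 and SZ-A5 are red in Arntl and Npas2 and blue in Per1 and Per2.

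In several mice Arntl and Npas2 deviated one way and the Per genes the other. NC5 had the highest Arntl (2.79 FPKM) and Npas2 (1.24) of all 18 mice, and the lowest Per2 (1.0), Per3 (0.0771), Nr1d1 (5.54) and Nr1d2 (5.15). SZ-A5 had the highest Arntl (0.920) and Npas2 (0.299) of the SZ-A mice together with their lowest Per1 (4.04), Per2 (3.12), Per3 (0.220), Cry2 (3.63) and Nr1d2 (13.7). HFD3 paired the highest Arntl (1.05) and Npas2 (0.367) of the HFD mice with the lowest Per1 (2.71) and Per3 (0.971). The reverse was seen in NC4, with the lowest Arntl (0.663) and the highest Per1 (6.94), Per2 (4.42), Per3 (0.981) and Cry2 (4.63) of its group.

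Across the 18 mice with the group means removed, the correlation of Arntl with each of the other 9 core genes was tested by permuting mice within groups (100000 permutations, adjusted over 9 pairs). Arntl varied with Npas2 (r = 0.868, rho = 0.80, permutation p = 2e-05, adjusted p = 9e-05). It varied against Per2 (r = -0.849, rho = -0.769, permutation p = 0.00013, adjusted p = 0.00039), Per3 (r = -0.779, rho = -0.814, permutation p = 1e-05, the smallest that these permutations can give, adjusted p = 9e-05), Per1 (r = -0.734, rho = -0.631, permutation p = 0.00196, adjusted p = 0.00353), Nr1d2 (r = -0.677, rho = -0.684, permutation p = 0.0003, adjusted p = 0.000675) and Cry2 (r = -0.612, rho = -0.501, permutation p = 0.00424, adjusted p = 0.00636).

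These 6 of 9 relations passed. Leaving out NC5 and HFD3, the mice farthest from the median of Arntl, gave r = 0.782 with Npas2, -0.769 with Per2, -0.745 with Per3, -0.586 with Per1, -0.728 with Nr1d2 and -0.595 with Cry2, all with an adjusted permutation p of 0.0487 or less. By rank, that of Cry2 did not pass (adjusted permutation p = 0.0619), and without NC5 and SZ-A5 those of Cry2 (r = -0.460) and Per1 (r = -0.631) did not pass, both at an adjusted permutation p of 0.0686.

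Arntl showed no relation that passed with Clock (r = 0.151, rho = 0.325), Cry1 (r = 0.167, rho = 0.115) or Nr1d1 (r = -0.190, rho = 0.0299), whose permutation p ran from 0.463 to 0.564 for r and from 0.203 to 0.908 for rho. With Clock, the lack of a relation rested on NC5, the lowest NC mouse in Clock and the highest in Arntl. Without NC5 and HFD3 the correlation was r = 0.609 (permutation p = 0.0216, adjusted p = 0.0324), and without NC5 alone r = 0.694 (adjusted permutation p = 0.00792).

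Within single groups of 6 mice, exact permutation tests over all 720 orders were adjusted over 27 relations. The relation of Arntl to Per3 passed in each group, with r = -0.987 among NC, -0.886 among HFD and -0.835 among SZ-A mice (exact permutation p = 0.00278, 0.00972 and 0.00833, adjusted p = 0.0375, 0.0429 and 0.0429). The relation to Npas2 passed in NC (r = 0.927) and HFD mice (r = 0.979) and not in SZ-A mice (r = 0.651, exact permutation p = 0.156). Those to Per2 (r = -0.957, exact permutation p = 0.0111, adjusted p = 0.0429) and Nr1d2 (r = -0.875, 0.00278 and 0.0375) passed among NC mice alone. Whether the groups differ in this was not tested. In Nr1d1 the sign was not shared: r was -0.750 among NC, 0.804 among HFD and 0.045 among SZ-A mice, and none passed after adjustment (exact permutation p = 0.0875, 0.0403 and 0.938).

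**Figure D4:**
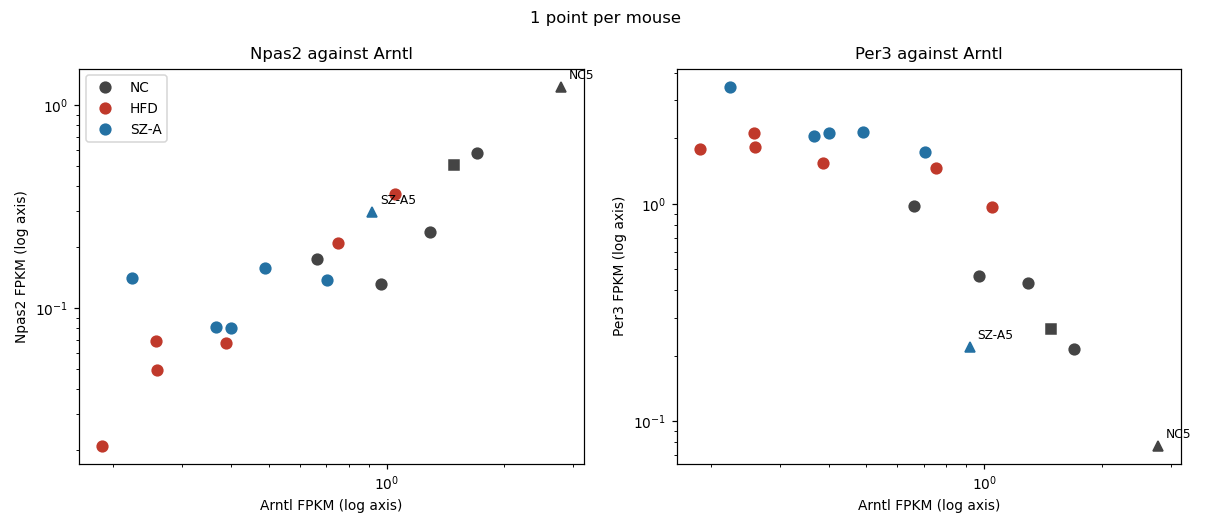
FPKM of Npas2 (left) and Per3 (right) against that of Arntl in the 18 mice, all on log axes, 1 point per mouse with colour by group; triangles are NC5 and SZ-A5, and the square is NC6. Npas2 goes up with Arntl from the HFD mice at the lower left to NC5 at the upper right, and Per3 goes down, with SZ-A5 under the other mice of like Arntl level.

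All 45 pairs of core genes gave correlations from -0.860 to 0.892 over the 18 mice, 24 above 0 and 21 below. These are given as a description with no test, and every pair shares its libraries. The highest were Cry2 with Per3 (0.892), Nr1d1 with Nr1d2 (0.816), Per1 with Per2 (0.814) and Arntl with Npas2. Npas2 with Per2 was the lowest. With all mice Clock had no correlation beyond 0.412 with any gene but Nr1d1 (0.673), and Cry1 ranged from -0.458 to 0.31. Without NC5 and SZ-A5 the correlation of Cry2 with Per3 was 0.717, that of Per1 with Per2 was 0.727 and that of Arntl with Npas2 was 0.824, while that of Nr1d1 with Nr1d2 dropped to 0.226. The Clock correlations also changed without these mice, to -0.742 with Per3, 0.632 with Arntl, 0.589 with Npas2, -0.497 with Cry2 and 0.387 with Nr1d1.

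**Figure D5:**
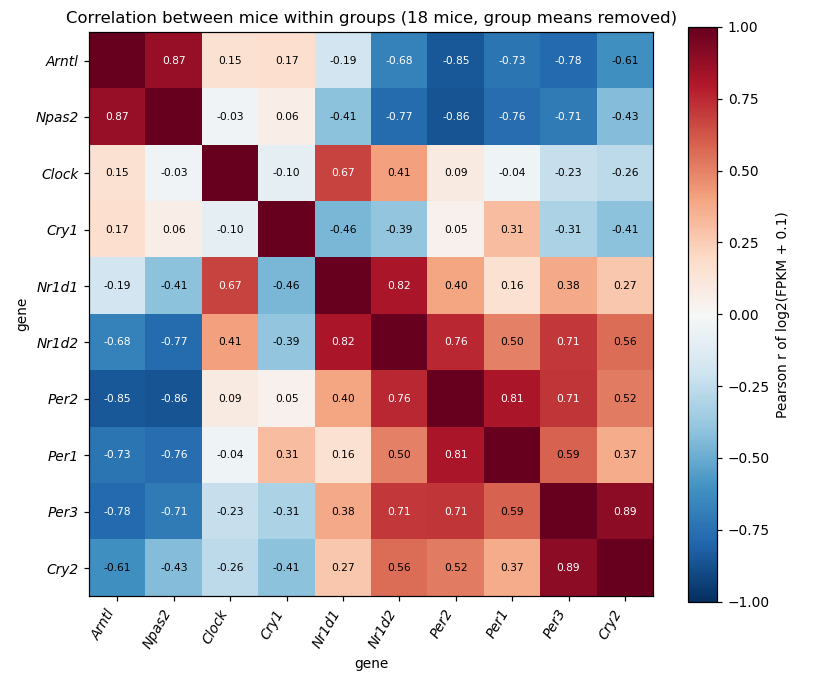
Pearson correlations of log2(FPKM + 0.1) between the 10 core clock genes over 18 mice with group means removed (colour and printed value, from -1 to 1). Arntl and Npas2 are blue against Per1, Per2, Per3, Nr1d2 and Cry2, which are red among themselves, and Clock and Cry1 are pale in most rows.

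Among the 10216 genes tested, those whose levels went up and down with Arntl most closely over the 18 mice, group means removed, were Clpx (r = 0.90), Gldc (0.885), Btg1 (0.837), Ddc (0.830) and Ubxn1 (0.826). Clpx encodes the unfoldase of a mitochondrial protease and Gldc the glycine decarboxylase of the glycine cleavage system. Those most opposed to Arntl were Per2, Usp2 (-0.815), Gm14403 (-0.809), Hrg (-0.808) and Tspan4 (-0.806). Usp2 encodes a deubiquitinase that is itself clock controlled. Without NC5 and SZ-A5 these 10 correlations were 0.765 to 0.866 and -0.843 to -0.744. Tef was the 8th lowest (-0.795) and Dbp the 25th lowest (-0.746).

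Other genes of the clock pathway, 35 in all of which 28 passed the filter, were listed beside the core. In HFD against NC 6 of the 28 rose and 1 fell, next to the 20.2% of all genes called, and the median log2 difference was 0.01 where that of all genes was -0.03. Wee1, a cell-cycle kinase with an E-box promoter, ranged from 0.604 to 2.12 FPKM in NC and from 3.10 to 7.78 in HFD mice, with no overlap, and rose by 2.32 (SE 0.27, limma adjusted p = 0.000152). Dbp, the D-box factor that CLOCK and BMAL1 switch on, ranged from 0.990 to 14.0 FPKM in NC and from 18 to 31.7 in HFD mice, with no overlap, and rose by 2.17 (SE 0.52, limma adjusted p = 0.00991).

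Nampt, the enzyme of NAD salvage whose gene is clock controlled, rose by 1.04 (SE 0.20, limma adjusted p = 0.00296), again with no overlap between the groups. Bhlhe40, a repressor that competes for E-boxes, rose by 1.24 (limma adjusted p = 0.0281) and Cipc, an inhibitor of CLOCK, by 0.33 (0.0396). The call of Bhlhe40 was lost without any 1 of NC6, HFD1, HFD4, HFD5 or HFD6 (limma adjusted p 0.0502 to 0.0605), and that of Cipc without any 1 of NC1, NC2, NC4, NC5, NC6, HFD3, HFD4, HFD5 or HFD6 (0.0596 to 0.0807). Ddb1 fell by 0.28 (0.0243), but with a common sum per mouse the difference was -0.08 (limma adjusted p = 0.584), and the call was lost without any 1 of NC1, NC3, NC4, HFD2 or HFD3. Ciart (1.55, adjusted p = 0.179), Tef (0.68, 0.0638), Hlf (0.24, 0.286) and Nfil3 (-0.29, 0.574), the last being the repressor at D-boxes, did not pass in limma. Tef passed without NC4 (0.81, limma adjusted p = 0.031) and with a common sum (0.87, 0.0267).

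In SZ-A against HFD 0 of these 28 genes passed in limma, 1 had an unadjusted p under 0.05 and 0 passed with voom. The largest differences, in Noct (0.60, limma adjusted p = 0.501), Ciart (0.51, 0.785) and Usp2 (0.41, 0.802), lay within the spread between mice. In SZ-A against NC 6 of 28 rose and none fell, next to 9.6% of all genes, with a median of 0.08 where that of all genes was -0.01. Among them were Wee1 (2.48, limma adjusted p = 0.00390), Dbp (2.34, 0.0300), Bhlhe40 (1.64, 0.00666), Nampt (0.87, 0.00946) and Cipc (0.43, 0.0178). SZ-A5 was the lowest SZ-A mouse in Wee1 (1.37 FPKM), Dbp (7.23) and Nampt (8.83). Without SZ-A5 10 of the 28 passed, with Ciart, Tef, Hlf and Usp2 added, next to 1179 of all 10216 genes tested. The call of Dbp was lost without any 1 of NC1, NC3, SZ-A1, SZ-A2, SZ-A3, SZ-A4 or SZ-A6 (limma adjusted p 0.0501 to 0.0672).

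Some genes of the fasting and glucocorticoid response differed in the same comparison. Of 16 listed and tested, 7 fell, none rose and 9 did not pass in HFD against NC, next to 9.49% of all genes called as lower (median log2 difference -0.68, against -0.03 for all genes): Igfbp1 by 2.16, Tat by 1.47, G6pc by 1.26, Pck1 by 1.15, Tsc22d3 by 0.77, Angptl4 by 0.66 and Cpt1a by 0.66 on the log2 scale (limma adjusted p 0.000253 to 0.0367). Without NC5 the calls of Igfbp1 (limma adjusted p = 0.0601) and G6pc (0.0558) were lost and 5 were left. Those of Igfbp1, G6pc and Tsc22d3 were each lost without any 1 of several other mice as well (0.0577 to 0.0784), and with a common sum those of G6pc (0.0505) and Tsc22d3 (0.110) were lost. Pck1, Tat, Cpt1a and Angptl4 passed with each mouse left out in turn and with a common sum.

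In SZ-A against HFD 0 of the 16 passed, next to 0.147% of all genes, with Pdk4 at -0.96 (limma adjusted p = 0.193), Fgf21 at 0.68 (0.709) and Tat at 0.65 (0.275). Without SZ-A5 Pdk4, a kinase that restrains glucose oxidation, passed as lower (-1.25, limma adjusted p = 0.0393), next to 0.303% of all genes called. In SZ-A against NC 4 of 16 fell, next to 4.3% of all genes called as lower: Pdk4, Pck1, Cpt1a and Angptl4 (limma adjusted p 0.0104 to 0.0469). The call of Angptl4 was lost without any 1 of NC1, NC3, NC4, NC6, SZ-A1, SZ-A2, SZ-A4 or SZ-A6 (0.0647 to 0.0964) and with a common sum (0.108), and that of Pck1 without NC4, SZ-A1 or SZ-A6 (0.0509 to 0.0575). Tat passed as lower without NC6 (limma adjusted p = 0.0372) or without SZ-A5 (0.0433).

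NC5 and SZ-A5, which stood apart in the clock genes, also lay outside the range of their groups in some of these. Such places were common for both mice. Over all genes tested, NC5 was the highest or lowest NC mouse for 64.5%, and SZ-A5 was so in its group for 49.2%. Igfbp1, a secreted protein induced when insulin is low, was at 622.4 FPKM in NC5 against 21.3 to 349.4 in the other NC mice, and at 435.7 in SZ-A5 against 9.45 to 43.9 in the other SZ-A mice. Cdkn1a was at 34.2 FPKM in NC5 against 2.52 to 16, and at 10.47 in SZ-A5 against 1.26 to 6.40. Fgf21 was at 142.6 FPKM in SZ-A5 against 4.03 to 31.1, while NC5 had 8.05 against 15.7 to 34.2. Fkbp5 was higher in NC5 than in the other NC mice, at 23.22 FPKM against 2.40 to 14.83. Tsc22d3 (21.76 against 35.85 to 49.72) and Cpt1a (182.3 against 236.7 to 255.4) were lower in NC5 than in the others. The part of this response in the clock gene values was not tested.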

How the data were processed

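Liver RNA of 18 mice (6 NC, 6 HFD, 6 SZ-A, grouped by their titles) was sequenced by the authors as 150 bp paired-end reads of unstranded poly-A libraries (NovaSeq). Reads were aligned to mm10/GRCm38 with HISAT2 2.0.5 and counted with featureCounts 1.5.0-p3 (submitters' processing notes). The authors deposited 1 table of FPKM per gene. FPKM times gene length gave whole fragments for 100% of values above 0 (tolerance 0.05 of a fragment), from which the depth was worked back. The library size behind the FPKM was 0.9325 to 1.1414 of that total.

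Log2(FPKM + 0.1) was tested with limma 3.58.1 in R 4.3.3 (lmFit, eBayes with trend) over 10216 genes with a mean of at least 1 FPKM, 2 groups per fit, no covariates. Calls needed an adjusted p under 0.05 (Benjamini-Hochberg, over all genes) and a fold change over 1.2. The limma p-values set the difference of group means against the spread between mice, moderated over genes. Arntl and Npas2, under the filter, were tested with no filter. A fold change on this scale understates that of low genes. DESeq2, which the authors used, was not run because the unit is FPKM. Voom on recovered fragments was an alternative. Correlations were permuted within groups (Python 3.11.15, numpy 2.4.6, scipy 1.17.1, pandas 2.3.3, matplotlib 3.10.9). Scripts were tested on simulated data.

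Deviations of same-numbered mice correlated at r from -0.117 to 0.292, and replicate numbers were not used as pairs in the main fits. No 2 libraries were alike within sampling noise (lowest chi-square within a group 20.3 per degree of freedom). The members, lists (clock pathway, fasting response, cell types) and tests were chosen with earlier results of these data known. All 10 core genes are named, and of the other lists the called genes, the 3 largest differences per comparison, Dbp, Tef, Hlf and Nfil3, the 5 genes most and least correlated with Arntl, and genes overlapping a core gene, except that 1 called gene of the clock pathway list is counted but not reported here. Igfbp1, Cdkn1a, Fgf21, Fkbp5, Tsc22d3 and Cpt1a per mouse, and Usp2, were named after their values were seen. Alternatives were pseudocounts of 1 and 0.01, no filter, a mean of at least 5 FPKM, a common sum, median-ratio scaling, all mice in 1 fit, no trend, sample weights, a replicate block, voom, other fold thresholds, and each mouse left out. A mean of at least 0.1 FPKM, and NC5 and SZ-A5 left out together, were added after the data were seen.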

Additional observations from a re-analysis of the deposited data

Results flagged for a closer look

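Of 69 groups of 6 mice examined (23 genes, the core clock genes and named clock pathway genes, in 3 groups), 5 held a mouse whose gap to the nearest other exceeded 0.625 of the group's range. Chance alone flags about 1 in 20 such groups where values are normally distributed, which FPKM need not be. The 69 groups share mice and so are not independent, and whether 5 flags exceed chance was not tested. Npas2 was at 0.299 FPKM in SZ-A5 against 0.0800 to 0.158 in the other SZ-A mice, and Usp2 was at 1.18 FPKM in the same mouse against 10.7 to 13.8. Nr1d1 was at 5.54 FPKM in NC5 against 20.4 to 27.1 in the other NC mice. Wee1 was at 2.12 FPKM in NC4 against 0.604 to 1.11, and Usp2 was at 8.70 FPKM in NC4 against 0.731 to 3.43.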

How the results depend on the processing

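Counts of core genes called in HFD against NC (3) stayed within 2 to 4 with a mouse left out, and were 1 at a fold over 2 and 0 at a mean of at least 5 FPKM, where few core genes were left to test. In SZ-A against NC (4) they were 2 to 4 with a mouse left out, 2 at a fold over 2, 0 with no filter and 0 at a mean of at least 5 FPKM. In SZ-A against HFD the count was 0 in every alternative run. The other clock pathway genes called were 4 at a fold over 2 in HFD against NC (7). In SZ-A against NC (6) they were 3 at a fold over 2, 11 with sample weights and 4 to 10 with a mouse left out. Without NC5 and SZ-A5 they were 11 in SZ-A against NC, next to 1408 of all genes. The causes were not tested.

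Best matches, each among the 6 mice of another group, had the same replicate number in 9 of 36 cases. That count does not settle whether the numbers pair the mice. With the replicate block 4 other clock pathway genes passed in HFD against NC, Arntl lost its call in HFD against NC and Clock in SZ-A against NC, and Nr1d2 passed in SZ-A against NC. The correlation of Arntl with Cry1 was then -0.237 and with Nr1d1 0.106, and that with Cry2 no longer passed.

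Directions turned only in differences that did not pass. In HFD against NC, Per1 was 0.0346 with a common sum and -0.322 to 0.0251 with a mouse left out, and Nr1d1 was -0.10 with sample weights, -0.19 without NC5 and SZ-A5, and -0.19 to 0.26 with a mouse left out. In SZ-A against HFD a common sum gave -0.0182 for Cry2, -0.162 for Per3, -0.0339 for Nr1d1 and -0.107 for Nr1d2 while the median of all genes moved from 0.03 to -0.15. Per3 there was -0.0429 with a pseudocount of 0.01, -0.0186 with median-ratio scaling, -0.0636 with voom and -0.21 to 0.48 with a mouse left out. Cry1 was 0.0527 with sample weights and -0.15 to 0.0503 with a mouse left out. In SZ-A against NC, Nr1d1 was -0.0460 to 0.408 with a mouse left out. The correlation of Arntl with Nr1d1 was 0.0299 by rank, 0.101 without the 2 farthest mice, 0.482 without NC5 and SZ-A5 and -0.377 to 0.348 with a mouse left out, and that with Cry1 was -0.0404 to 0.375.

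All genes called in HFD against NC were 2062, and 371 at a fold over 2 and 1271 at a mean of at least 5 FPKM. In SZ-A against HFD they were 15, and 0 with no filter or the block, 7 at a fold over 2, 26 at a mean of at least 5 FPKM, 31 with voom, 35 with all mice in 1 fit, 216 with a common sum (10 higher, 206 lower), 233 with sample weights and 2 to 49 with a mouse left out. In SZ-A against NC they were 981, and 205 at a fold over 2, 564 with no filter, 1682 with sample weights and 601 to 1179 with a mouse left out. Npas2 (2 to 96 fragments) and Arntl (28 to 340) are limited by depth, as is Per3 in NC mice (12 to 191) and in SZ-A5 (37).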
